A study of Homo sapiens with 4 samples.

Results

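The genes described here are 36 genes of the ATF4 response and of amino acid supply: transcription factors and brakes of the stress response, effectors of stress, enzymes that make serine, glycine, asparagine, proline, cysteine and alanine, amino acid transporters, and cytosolic tRNA synthetases. They were taken by gene symbol from 60658 Ensembl identifiers, each matching 1 identifier. A total of 35 had a mean of at least 1 FPKM (fragments per kilobase, scaled to library depth) over the 4 libraries, as did 14803 genes in all. VLDLR did not.

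The knockdown belongs to a study of TMEM161A, which encodes a membrane protein, and of tumour growth in colorectal cancer. RNA was sequenced from HT29 and LIM1215, established human colorectal cancer lines. Each line gave 1 library from cells with a negative control siRNA (NC) and 1 from cells with an siRNA against TMEM161A (labelled si2). An siRNA is a short RNA duplex that directs cleavage of a matching mRNA. The labels name no time or dose of siRNA, and the 4 libraries hold a single siRNA against the gene. With 1 library per group there is no spread between replicates and no test within a line, and cultures, siRNA off-targets and loss of TMEM161A cannot be told apart. The other line is the only repeat, and a fit over both lines with the line as a block leaves 1 residual degree of freedom.

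ATF4 is a transcription factor whose mRNA is translated when the initiation factor eIF2 is phosphorylated, by PERK during endoplasmic reticulum (ER) stress or by GCN2 when amino acids run short. ATF4 protein then switches on genes for amino acid synthesis, uptake and tRNA charging, together with DDIT3 (CHOP), a factor linked to cell death under lasting stress. Because ATF4 is controlled largely through translation, its mRNA level and its protein level need not move together.

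In both lines the library labelled si2 had less TMEM161A than its control, with FPKM of 42.6 in NC and 4.64 in si2 of HT29, and of 39.1 and 7.61 in LIM1215. At an FPKM of 1, a kilobase of transcript was covered by an estimated 18.1 to 21.5 fragments, depending on the library. Of 12 markers of colon epithelium, 7 reached 1 FPKM in HT29 and all 12 in LIM1215. Between the control libraries, 11 of the 12 (91.7%) were more than 2-fold higher in LIM1215 by FPKM + 1, against 12.0% of all genes tested. Of 15 markers of other cell types, 3 reached 1 FPKM in each library, with a summed FPKM from 27.0 to 84.8. The highest were CD68, a macrophage marker, at 6.21 and 9.82 FPKM in HT29 and 58.0 and 72.2 in LIM1215 (NC, then si2), and COL1A1, a fibroblast collagen, at 17.6 and 15.9 in HT29 and 4.83 and 8.55 in LIM1215. PTPRC and CD3E, which define leukocytes and T cells, were listed at 0 in all 4 libraries. The part of these markers in the results was not tested. In these bulk samples, fewer cells of a type and less RNA per cell cannot be told apart.

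ATF4 binds with C/EBP partners to a composite element. The core searched here, TGATGNAA, was looked for on both strands of RefSeq promoter windows (GRCh38.p14, 250 bases before to 50 after a start site), in which 30 of the 36 genes had an entry. GPT2, NUPR1, PSPH, PYCR1, SHMT2 and SLC7A11 had none. The core was present in windows of 9 of the 30 genes, against 4.46% of all 27305 genes in the table and 3.62% of its 35116 windows. In NARS1 and SLC3A2 it lay after the start site. The other 7 are shown because they are the letters by which this group of genes is usually recognised. The core is in capitals, with 11 bases on either side, each written 5′ to 3′ on the strand that carries the core:
ATF3, chr1:212565205-212565234, plus strand: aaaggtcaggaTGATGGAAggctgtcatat
GARS1, chr7:30594834-30594863, minus strand: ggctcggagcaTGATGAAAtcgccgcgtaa
ASNS, chr7:97872458-97872487, minus strand: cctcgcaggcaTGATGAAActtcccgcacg
CHAC1, chr15:40953251-40953280, minus strand: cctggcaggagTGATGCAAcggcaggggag
AARS1, chr16:70289675-70289704, plus strand: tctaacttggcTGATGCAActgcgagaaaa
CEBPG, chr19:33374060-33374089, plus strand: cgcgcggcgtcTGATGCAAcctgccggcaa
SLC1A5, chr19:46784893-46784922, minus strand: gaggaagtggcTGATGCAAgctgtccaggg

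The cores began between 33 bases (GARS1) and 209 bases (CHAC1) before their start sites. A match is a description of letters and not a measured binding site. Of the 9 genes with a core, SLC3A2 was lower past 1.5-fold in LIM1215, and CHAC1 lay at that limit in HT29.

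Most of the 36 genes stayed close to control after the TMEM161A siRNA, and the main exceptions were DDIT3 and SHMT2, which fell in both lines. DDIT3 went to 36.2% of control in HT29 and 35.7% in LIM1215, and SHMT2, the mitochondrial serine hydroxymethyltransferase, to 55.9% and 51.7%. SLC7A11 and PCK2 fell past 1.5-fold in HT29, and SLC3A2 in LIM1215. None rose in either line. ATF4 itself was at 96.0% and 89.5% of control.

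Changes were measured as the log2 ratio of FPKM + 1, si2 over NC, and "rose" and "fell" are used only for a log2 ratio past 1.5-fold. The added 1 pulls the ratio of low genes toward 0, so NUPR1 in LIM1215, at 157% of control in FPKM, had a log2 ratio of 0.42. By a 2-fold limit, 1 of the 35 genes was lower in HT29 (DDIT3) against 1.95% of all genes tested, and 1 in LIM1215 (DDIT3) against 1.78%. None was higher, against 1.85% and 1.68% of all genes. At 1.5-fold, 4 of 35 (11.4%) were lower in HT29, against 6.91% of all genes and 6.04% of protein-coding genes. In LIM1215 there were 3 (8.57%), against 6.18% and 4.91%. None was higher at 1.5-fold, against 7.87% of all genes and 6.58% of protein-coding genes in HT29 and 6.63% and 5.11% in LIM1215.

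The 2 genes lower past 1.5-fold in both lines were 5.71% of the 35, against 2.14% of all genes tested. Conversely, 30 of the 35 (85.7%) were past 1.5-fold in neither line, as were 77.2% of all genes and 81.1% of protein-coding genes. The ratio was within 0.25 of 0 in both lines for 18 genes (51.4%), against 32.6% of all genes and 35.6% of protein-coding genes. Among them were ATF4, ATF3, ASNS, PSAT1, MTHFD2 and SLC7A5, and also CBS, listed at 0 in HT29. The 36 genes were abundant, with a median FPKM of 112 in HT29 NC and 122 in LIM1215 NC. Over all genes tested it was 11.8 and 13.1. The part of level in these shares was not tested. The median log2 ratio of the 35 genes was −0.06 in HT29 and −0.15 in LIM1215, beside 0.04 and 0.02 over all genes tested. In HT29 20 ratios (57.1%) were below 0, against 44.4% of all genes, and in LIM1215 25 (71.4%), against 46.4%. Under the scalings the sign changed for 7 of the 35 genes in HT29 and 1 in LIM1215. A total of 16 (45.7%) were below 0 in both lines, against 28% of all genes.

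A limma fit of the siRNA with the line as a block, added after the data were seen, called 2 of the 35 genes lower (adjusted p under 0.05 over all 14803 genes), against 1.09% of all genes, and none higher, against 0.858%. At an unadjusted limma p under 0.05, 9 of the 35 were lower and 1 higher (PPP1R15A), 28.6% in all. Over all 14803 genes 1308 were lower and 1574 higher at that limit (19.5%). The 2 genes past the adjusted limit were DDIT3 and SHMT2. DDIT3 had a log2 difference of −1.44 (95% interval −1.71 to −1.17, limma adjusted p = 0.00365). SHMT2 had −0.89 (−1.14 to −0.64, limma adjusted p = 0.0187). SLC7A11 had −0.60 (limma adjusted p = 0.111) and SLC3A2 −0.49 (limma adjusted p = 0.124). These calls rest on a variance borrowed across genes as a trend with expression. Without that trend limma called none of the 35 genes and 0 of all genes in either direction. At an unadjusted limma p under 0.05, 3 of the 35 were then lower and 0 higher (8.57%). Over all 14803 genes 1070 were lower and 1203 higher (15.4%).

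**Figure D1:**
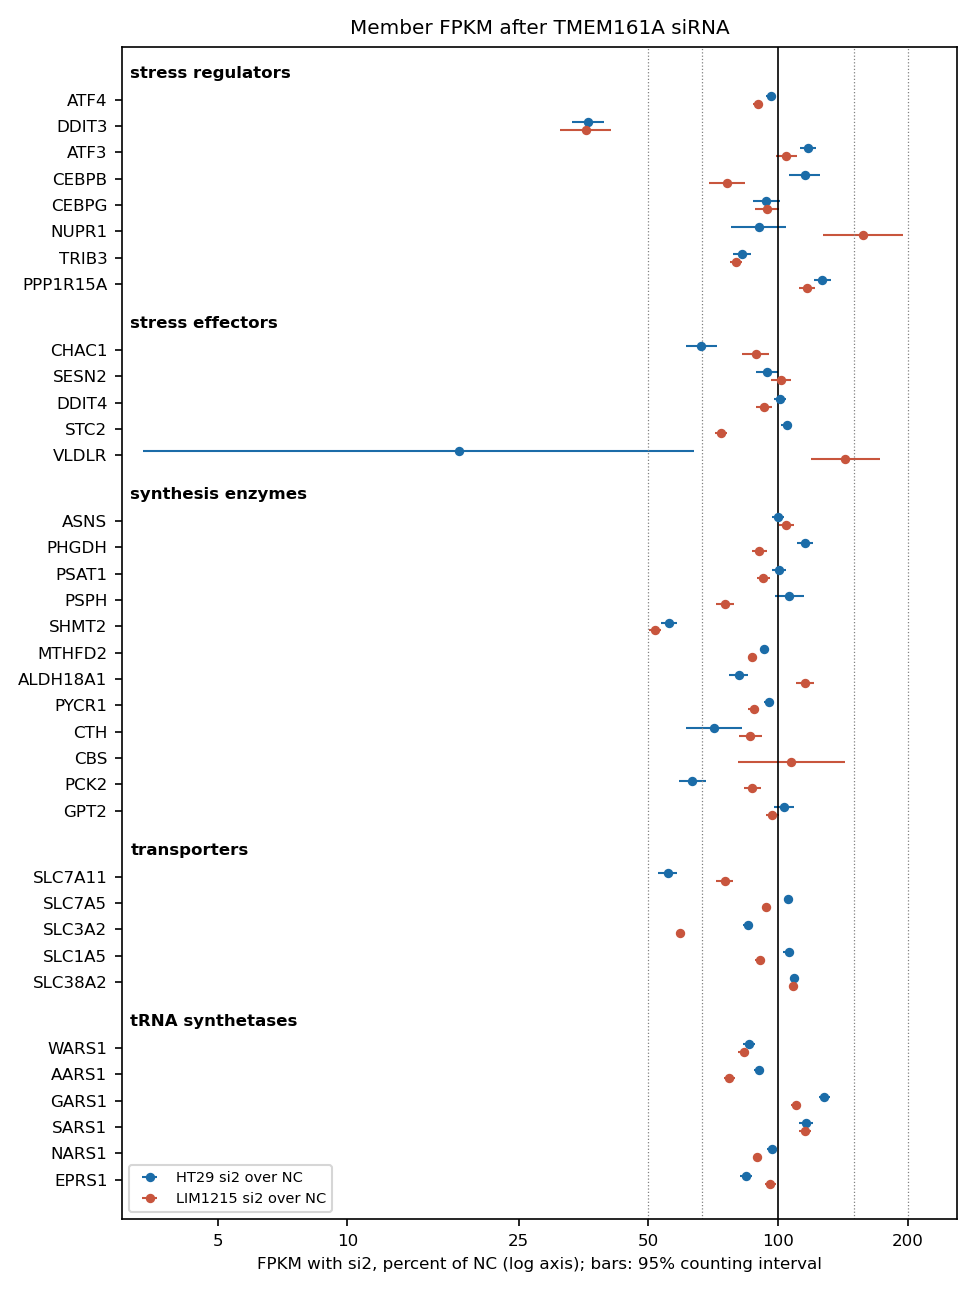
FPKM in the si2 library as a percentage of the NC library (log axis) for each gene, by role, in HT29 (blue) and LIM1215 (red). Points are single libraries over single libraries, bars are 95% counting intervals, and dotted lines mark 1.5-fold and 2-fold. DDIT3 and SHMT2 lie left of the 1.5-fold line in both lines, and CBS has no HT29 point because it was listed at 0 there.

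Among the regulators, ATF4 (ENSG00000128272, chromosome 22) was the most abundant, with FPKM of 527 in HT29 NC, 506 in HT29 si2, 597 in LIM1215 NC and 534 in LIM1215 si2. The 4 values lay close together, and the log2 ratios were −0.06 and −0.16. Under the scalings and centrings tried, the HT29 ratio lay between −0.17 and −0.09.

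DDIT3 (ENSG00000175197, chromosome 12, 57516588 to 57521737, minus strand, GRCh38, GENCODE release 44) encodes CHOP, a C/EBP-family factor that ATF4 induces. Its FPKM was 129.6 in HT29 NC, 46.9 in HT29 si2, 57.6 in LIM1215 NC and 20.6 in LIM1215 si2. Both si2 libraries were below both controls. Log2 ratios were nearly equal, −1.45 for HT29 and −1.44 for LIM1215. The 95% counting intervals ran from 33.2% to 39.5% of control for HT29 and from 31.1% to 41.0% for LIM1215. These rest on an estimated 1930 fragments in HT29 NC, 709 in HT29 si2, 731 in LIM1215 NC and 292 in LIM1215 si2. Counted from the lowest of 12295 protein-coding genes, DDIT3 had rank 25 in HT29 and rank 27 in LIM1215. The FPKM of DDIT3 relative to that of ATF4 was 0.246 in HT29 NC and 0.0927 in HT29 si2, and 0.0965 and 0.0385 in LIM1215.

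Of the 1307 exonic bases annotated for DDIT3, 355 (27.2%) overlap exons of MARS1, the methionyl-tRNA synthetase gene on the opposite strand. Whether counting used the strand is not given in the sources used here. MARS1 had FPKM of 240.6 in HT29 NC, 356.5 in HT29 si2, 238 in LIM1215 NC and 244 in LIM1215 si2. The part of shared fragments in the DDIT3 values was not tested.

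The 150 bases before the farthest upstream RefSeq start site of DDIT3 are shown because it fell most. CCAAT boxes, also read on the other strand as ATTGG, are in capitals, and the sequence is written 5′ to 3′ on the minus strand (GRCh38.p14):
DDIT3, chr12:57520518-57520667: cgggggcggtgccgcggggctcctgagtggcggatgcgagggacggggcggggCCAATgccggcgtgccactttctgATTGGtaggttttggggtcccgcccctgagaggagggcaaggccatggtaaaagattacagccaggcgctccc

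The stretch held 2 CCAAT boxes, a motif present in 34.6% of all windows, and no TGATGNAA core. The ER stress element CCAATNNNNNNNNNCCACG, which contains a CCAAT box, had no exact match there on either strand. The letters that start at the first printed box differ from the element only in its last letter. Exact matches were found in 0.0769% of all windows and in none of the 30 genes. Near matches were not counted, so how common they are is not known. These motifs were added after the values were seen, and a missing match says only that these letters are not in the window.

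ATF3, a stress-induced repressor that ATF4 also induces, stayed within 1.5-fold. Its FPKM was 109.9 in HT29 NC, 129.0 in HT29 si2, 70.9 in LIM1215 NC and 74.1 in LIM1215 si2. Each si2 library was slightly above its control, by log2 ratios of 0.23 and 0.06, neither past 1.5-fold. TRIB3, a pseudokinase that damps ATF4 and CHOP, had ratios of −0.28 and −0.32. PPP1R15A (GADD34), which recruits the phosphatase that reverses eIF2 phosphorylation, had ratios of 0.34 and 0.22, the opposite sign to DDIT3 in both lines. CEBPG, a dimer partner of ATF4, had −0.09 in each line, and CEBPB 0.20 and −0.38. NUPR1, a stress-induced chromatin protein, was low, with FPKM from 1.48 to 3.63 and ratios of −0.12 and 0.42.

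Of the effectors, CHAC1, which degrades glutathione and lies downstream of ATF4 and CHOP, came nearest to the limit. Its FPKM was 51.2 in HT29 NC, 33.96 in HT29 si2, 61.5 in LIM1215 NC and 54.5 in LIM1215 si2. The log2 ratio was −0.58 in HT29, just short of 1.5-fold, and −0.17 in LIM1215. In HT29 it was past 1.5-fold with a pseudocount of 0.1 (−0.59) and with each of the 5 scalings and centrings tried, from −0.69 to −0.61. SESN2 and DDIT4 (REDD1), both inhibitors of mTORC1 signalling, had ratios between −0.11 and 0.02 in the pair of lines. DDIT4 was the most abundant effector, with FPKM of 231.6 and 233.3 in HT29 and 161.6 and 149.8 in LIM1215. STC2, a secreted glycoprotein, had 0.06 in HT29 and −0.43 in LIM1215. VLDLR, a lipoprotein receptor, had FPKM of 0.0842 and 0.0153 in HT29, on an estimated 16.1 and 2.97 fragments, and of 1.18 and 1.69 in LIM1215.

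Serine is made from a glycolytic intermediate by PHGDH, PSAT1 and PSPH, and SHMT2 then splits serine in mitochondria into glycine and a one-carbon unit that MTHFD2 oxidises. SHMT2 (ENSG00000182199, chromosome 12, 57229573 to 57234935) had FPKM of 147.8 in HT29 NC, 82.6 in HT29 si2, 285 in LIM1215 NC and 147.5 in LIM1215 si2. LIM1215 si2 thus stood at the level of HT29 NC, while within each line the si2 library was well below its control. The log2 ratios were −0.83 and −0.95, with counting intervals from 53.6% to 58.3% of control for HT29 and from 50.04% to 53.4% for LIM1215. In LIM1215 the ratio stayed short of 2-fold with every alternative tried, reaching −0.98.

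The enzymes on either side of SHMT2 stayed within 1.5-fold. PHGDH had ratios of 0.21 in HT29 and −0.15 in LIM1215, PSAT1 of 0.01 and −0.11, and PSPH of 0.08 and −0.41. MTHFD2, the most abundant enzyme of the group in HT29, had FPKM of 305 and 282 in HT29 and 284 and 246 in LIM1215, with ratios of −0.11 and −0.20. The FPKM of SHMT2 relative to MTHFD2 was 0.485 in HT29 NC and 0.293 in HT29 si2, and 1.01 and 0.5995 in LIM1215. The cytosolic isozyme SHMT1, had ratios of −0.43 and −0.49.

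PCK2, the mitochondrial phosphoenolpyruvate carboxykinase, fell in HT29. Its FPKM was 45.0 in HT29 NC, 28.5 in HT29 si2, 100.4 in LIM1215 NC and 87.5 in LIM1215 si2. Both si2 libraries were below their controls, with ratios of −0.64 (63.2% of control, counting interval 58.8% to 68.0%) and −0.20 (87.1%, 83.1% to 91.3%). With a pseudocount of 5 the HT29 ratio was −0.58, short of 1.5-fold. The difference between the lines was not tested.

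ASNS, the asparagine synthetase and a classic readout of ATF4, stayed near control. Its FPKM was 154.5 in HT29 NC, 154.4 in HT29 si2, 121.5 in LIM1215 NC and 126.8 in LIM1215 si2. The si2 value was 99.95% of control for HT29 (interval 96.7% to 103%) and 104% for LIM1215 (100.5% to 109%). ALDH18A1 and PYCR1 act in proline synthesis. PYCR1 had ratios of −0.07 and −0.19, and ALDH18A1 −0.30 in HT29 and 0.20 in LIM1215. GPT2, the mitochondrial alanine transaminase, had 0.04 and −0.04.

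CTH and CBS carry homocysteine to cysteine. CTH had FPKM of 10.99 in HT29 NC, 7.80 in HT29 si2, 62.3 in LIM1215 NC and 53.6 in LIM1215 si2, with ratios of −0.45 and −0.21. CBS was listed at 0 in both HT29 libraries and at 2.24 and 2.40 in LIM1215. RefSeq gives CBSL as a further name of CBS, a name used for a near-identical copy in GRCh38, and fragments can be split between such copies, so the CBS values are uncertain.

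Transporters differed among themselves. SLC7A11, the cystine and glutamate exchanger, fell in HT29, with FPKM of 19.98 in HT29 NC, 11.1 in HT29 si2, 23.4 in LIM1215 NC and 17.6 in LIM1215 si2. Both si2 libraries were below both controls. The ratios were −0.80 (55.4% of control, counting interval 52.6% to 58.3%) and −0.39 (75.2%, 71.8% to 78.8%). SLC7A11-AS1 overlaps 8.97% of its exonic bases on the opposite strand and was at most 2.34 FPKM.

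SLC3A2 (CD98 heavy chain) pairs with both SLC7A11 and SLC7A5 and carries them to the cell surface. Its FPKM was 401 in HT29 NC, 341 in HT29 si2, 500.1 in LIM1215 NC and 296 in LIM1215 si2. The LIM1215 si2 library was the lowest of the 4 and its control the highest. The ratio was −0.23 in HT29 (85.1% of control, counting interval 83.0% to 87.1%) and −0.75 in LIM1215 (59.3%, 57.8% to 60.8%). Its partner SLC7A5, the leucine and other large neutral amino acid exchanger, had ratios of 0.08 and −0.09. The FPKM of SLC7A5 relative to SLC3A2 was 0.622 in HT29 NC and 0.772 in HT29 si2, and 0.531 and 0.842 in LIM1215. SLC1A5, the glutamine transporter, had 0.08 and −0.14. SLC38A2, which takes up small neutral amino acids and is induced by their lack, had 0.12 in each line.

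The tRNA synthetases, which load amino acids onto tRNAs, all stayed within 1.5-fold. NARS1 was the most abundant of them in the HT29 control, at 206.0 FPKM. In HT29 the ratio of GARS1 was the highest, with FPKM of 171 in HT29 NC, 218 in HT29 si2, 281 in LIM1215 NC and 309 in LIM1215 si2 (0.35 and 0.14). SARS1 had 0.21 and 0.20. WARS1, AARS1, NARS1 and EPRS1 had ratios between −0.37 and −0.05. GARS1 and SARS1 thus lay above 0 in both lines and the other 4 below it. Signs were also mixed among the 18 other cytosolic synthetases and scaffold proteins described below. In each line 8 of those ratios were above 0 and 10 below.

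**Figure D2:**
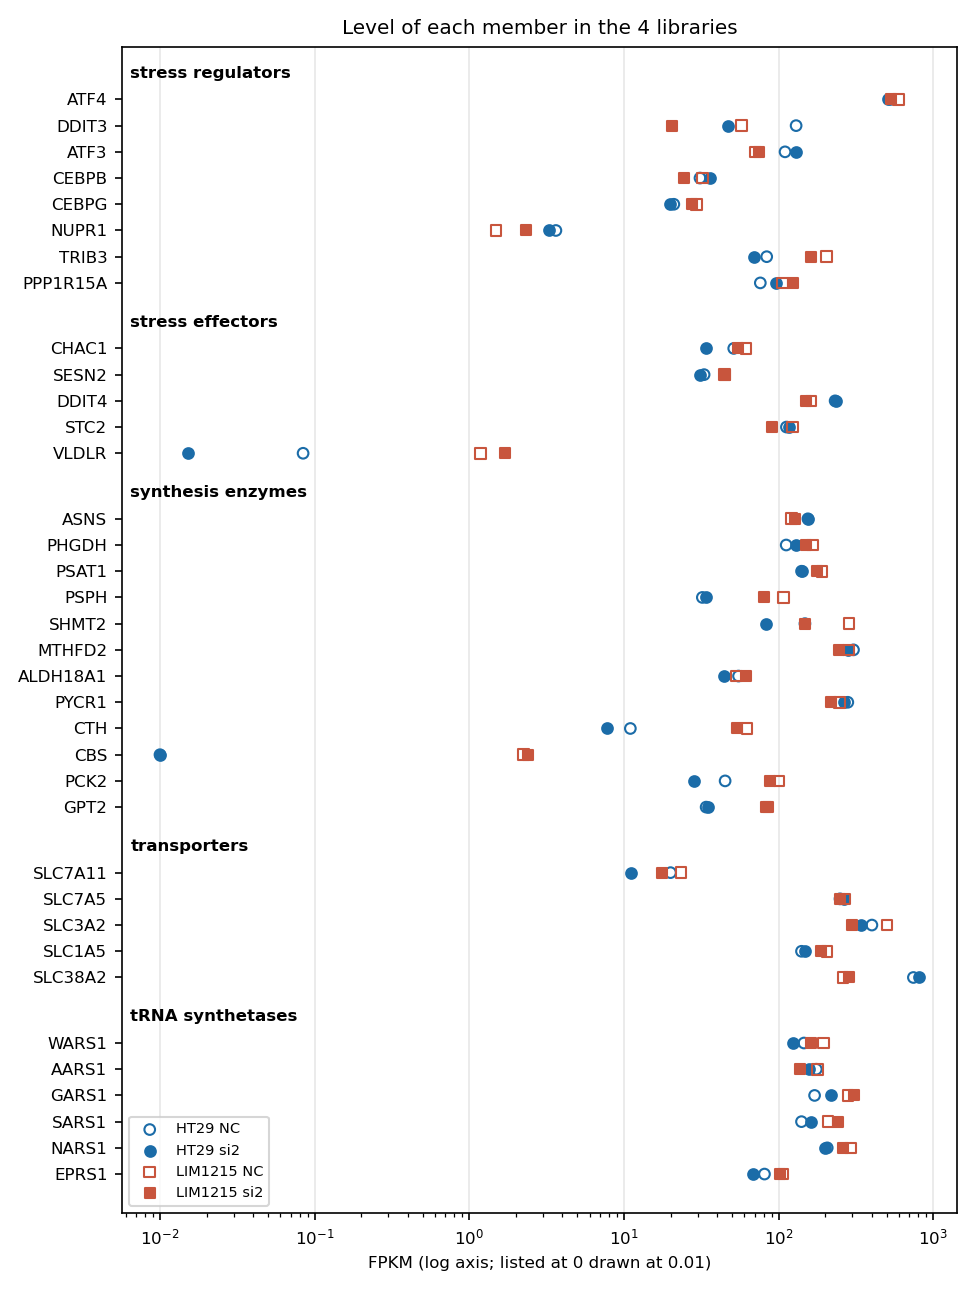
FPKM of each gene on a log axis in the 4 libraries, by role. Open symbols are NC and filled symbols si2, circles HT29 and squares LIM1215. ATF4 sits above 500 in all 4 libraries, the DDIT3 symbols are spread from 20.6 to 129.6, and CBS in HT29, listed at 0, is drawn at 0.01.

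Other genes of the pathway were taken from lists defined by function. Of 19 genes for eIF2, its exchange factor, kinases and phosphatase partners, 3 (15.8%) were lower past 1.5-fold in HT29, against 6.91% of all genes. In LIM1215 there were 2 (10.5%), against 6.18%. None was higher, against 7.87% of all genes in HT29 and 6.63% in LIM1215. EIF2AK3 (PERK), the eIF2 kinase of ER stress, fell from 18.2 to 8.42 FPKM in HT29 (−1.03) and from 11.9 to 6.11 in LIM1215 (−0.86). DNAJC3 (p58IPK), an ER co-chaperone described as a PERK inhibitor, fell from 35.1 to 13.8 (−1.29) and from 29.4 to 14.2 (−0.995). EIF2AK4 (GCN2), the kinase of amino acid shortage, had −0.05 and 0.07, EIF2AK1 −0.30 and 0.02, EIF2AK2 (PKR) −0.53 and −0.23, and EIF2B3 −0.27 and −0.31. NCK1, an adaptor, differed most between the lines, at −0.76 in HT29 and −0.06 in LIM1215.

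Of 17 further ATF4 targets tested, 1 was higher past 1.5-fold in HT29 and 3 in LIM1215, and 0 and 1 were lower. FGF21, on the same list, did not pass the filter and is outside these counts. Its FPKM was 1.37 and 0.272 in HT29, on an estimated 33.4 and 6.70 fragments. In LIM1215 it was 1.10 and 0.217, on 22.8 and 5.03 (log2 ratios of −0.90 and −0.79). CDKN1A, which is also a main p53 target, rose from 190 to 414 FPKM in HT29 (1.12) and from 206 to 518 in LIM1215 (1.33). Further rises, seen in LIM1215, were TXNIP (16.96 to 59.4, listed at 0 in HT29), a glucose-regulated arrestin, and SESN3 (0.836 to 3.17). SESN3, at 0.915 and 1.17 in HT29, passed the filter only through LIM1215 si2, the library where it is high, so its call adds no support. FGF19 fell in LIM1215 from 8.07 to 4.15 (−0.82) and had −0.42 in HT29. ERO1A, an ER oxidase linked to CHOP, had −0.30 and −0.38. The list median was −0.08 in HT29 and −0.11 in LIM1215.

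Among 21 other amino acid transporters, 1 was higher and 1 lower past 1.5-fold in HT29 (4.76% each, against 7.87% and 6.91% of all genes). LIM1215 had 2 higher (9.52%) and 3 lower (14.3%), against 6.63% and 6.18%. In LIM1215 these were SLC36A1 and SLC43A2 (0.59) above, and SLC1A4, SLC7A7 (−0.78) and SLC43A1 (−0.73) below. SLC36A1, a lysosomal amino acid exporter, rose from 2.62 to 5.05 (0.74) and from 4.18 to 7.97 (0.79). SLC16A10 fell in HT29 (−0.90) and had −0.39 in LIM1215, and SLC1A3 had −0.40 and −0.34. SLC1A4, a serine and alanine exchanger and reported ATF4 target, differed most between the lines, with 2.96 and 3.78 FPKM in HT29 (0.27) and 30.6 and 15.5 in LIM1215 (−0.94).

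Of the 18 other cytosolic synthetases and their scaffold proteins, 1 (5.56%) was past 1.5-fold, AIMP1 in HT29 (−0.61, and −0.03 in LIM1215). Over all genes, 6.91% were lower at that limit in HT29. LARS1 had −0.27 and −0.29, and TARS3 −0.38 and −0.22. Of 17 mitochondrial synthetases, 2 (11.8%) were higher past 1.5-fold in HT29 (SARS2 and WARS2), against 7.87% of all genes. In LIM1215 there was 1 (5.88%), FARS2 at 0.60, against 6.63%. SARS2 was at 0.65 and 0.41, PARS2 at 0.48 and 0.23, and YARS2 at −0.30 and −0.46. WARS2 differed most, with 4.05 and 9.36 FPKM in HT29 (1.04) and 9.65 and 10.2 in LIM1215 (0.07). The medians were −0.04 and −0.02 for the cytosolic list and 0.09 and 0.04 for the mitochondrial list.

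Of 24 other enzymes of amino acid and one-carbon metabolism tested, GLUL (glutamine synthetase) rose in HT29 (0.59, and 0.27 in LIM1215) and GLDC fell there (−0.80 and −0.07). Each was 4.17% of the list, against 7.87% of all genes higher and 6.91% lower in HT29. None was past 1.5-fold in LIM1215, against 6.63% of all genes higher and 6.18% lower. ASL and ASS1, the arginine synthesis pair, had 0.47 and 0.32 in HT29 and 0.30 and 0.29 in LIM1215.

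DDIT3 and EIF2AK3 are also part of the ER unfolded protein response, so 16 genes of its ATF6 and XBP1 arms were set beside the ATF4 genes. Of these, 14 (87.5%) were lower past 1.5-fold in HT29, against 6.91% of all genes. In LIM1215 there were 11 (68.8%), against 6.18%. The list medians were −1.05 and −0.99. HSPA5 (BiP) had ratios of −1.71 and −1.76, HERPUD1 of −1.77 and −1.64, and SDF2L1 of −1.82 and −1.70. EDEM1 differed most between the lines (−1.07 and −0.68). The DDIT3 ratios of −1.45 and −1.44 lay inside the range of this list, but so did those of ATF4 (−0.06 and −0.16). The list spread so widely in LIM1215 (lowest −1.76, highest 0.53) that it held all 35 genes (lowest −1.44, highest 0.42). Lying inside this range therefore does not set DDIT3 apart from the other genes. The ATF6 mRNA had 0.16 and 0.53, and XBP1 −0.60 and −0.31.

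**Figure D3:**
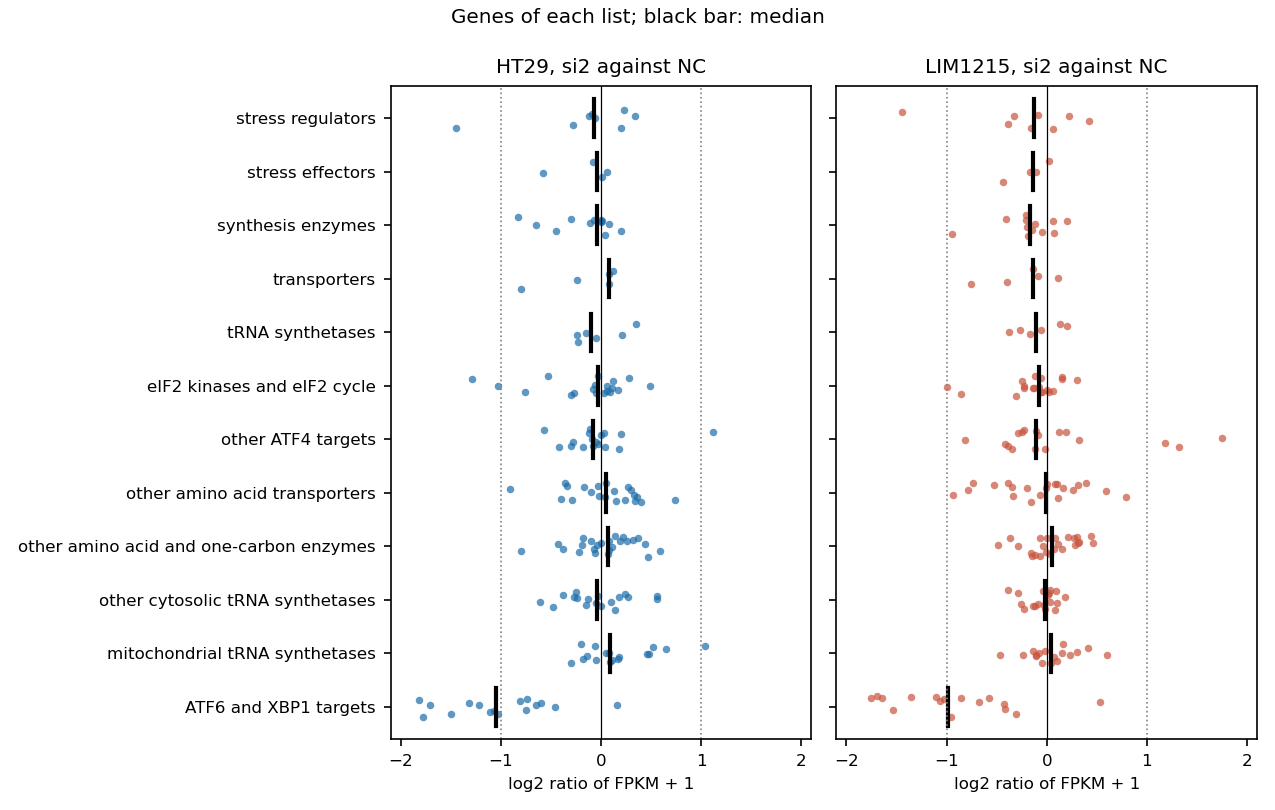
Log2 ratio of FPKM + 1, si2 over NC, for each gene of the roles and lists (points), with the median of each as a black bar, in HT29 (left) and LIM1215 (right). Dotted lines mark 2-fold. Medians of the ATF4 and amino acid groups lie between −0.17 and 0.09, and those of the ATF6 and XBP1 list at −1.05 and −0.99.

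The control libraries were compared to show how the lines differ before TMEM161A loss. By the 2-fold limit 6 of the 35 genes (17.1%) were higher in LIM1215 and 2 (5.71%) lower, against 12.0% and 7.42% of all genes. The 6 were CTH, PSPH, CBS, GPT2, TRIB3 and PCK2. CTH was 5.67-fold higher (counting interval 5.11 to 6.29), PSPH 3.34-fold (3.13 to 3.57), GPT2 2.51-fold (2.40 to 2.62), TRIB3 2.43-fold (2.34 to 2.53) and PCK2 2.23-fold (2.11 to 2.36) in FPKM. CBS was listed at 0 in HT29, so no fold is given. It passed the filter only through LIM1215, the line where it is higher, so its call adds no support. With a filter of at least 5 mean FPKM, 5 genes were higher and 2 lower. Under each of the 3 rescalings (common sum, common sum without mitochondrially encoded genes, upper quartile) 5 were higher and 3 lower, with PCK2 at 0.96 and NUPR1 at −1.03 on the log2 scale at their lowest.

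The 2 lower genes were SLC38A2 and DDIT3. SLC38A2 was the most abundant of the 36 genes in HT29, with FPKM of 743 in NC and 808 in si2, against 261 and 283 in LIM1215. The LIM1215 control held 0.351 of the HT29 level (0.346 to 0.357). DDIT3 held 0.444 (0.408 to 0.484), so the LIM1215 control, at 57.6 FPKM, was nearer to HT29 si2 (46.9) than to HT29 NC (129.6). ATF4 was at 1.13-fold (1.11 to 1.16), a log2 ratio of 0.18 that went to just below 0 under 1 scaling. All 6 tRNA synthetases had a ratio above 0, from 0.03 (AARS1) to 0.72 (GARS1), as did 53.7% of all genes. Rescaling FPKM to a common sum moved the median of all genes from 0.05 to −0.11 in this comparison, and the AARS1 ratio to −0.15. The other synthetases stayed above 0 under every scaling, at the lowest 0.22 (EPRS1).

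**Figure D4:**
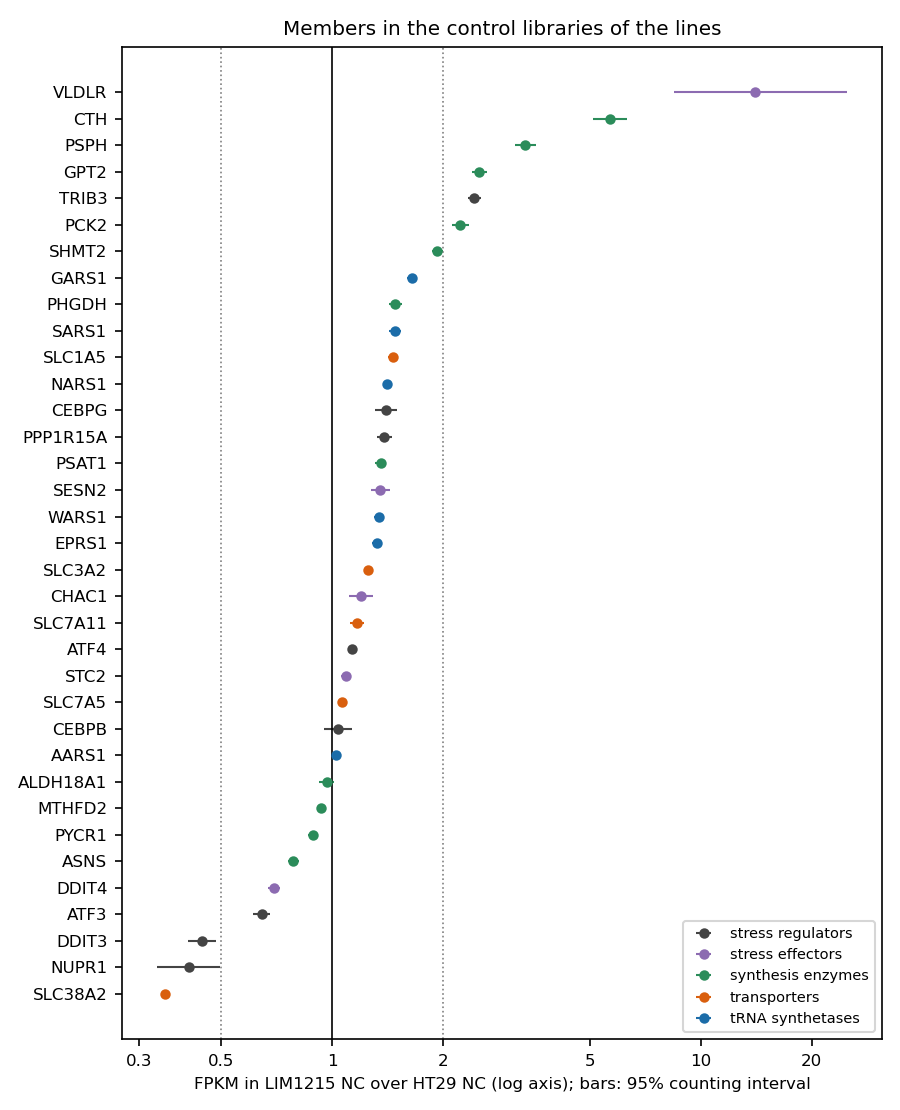
FPKM in the LIM1215 control library over the HT29 control library (log axis) for the 35 genes listed above 0 in both, sorted and coloured by role, with points for 1 library over 1 library, bars for 95% counting intervals and dotted lines at 2-fold. SLC38A2, NUPR1 and DDIT3 lie at the bottom and CTH, PSPH and GPT2 near the top, below VLDLR, whose HT29 value rests on an estimated 16.1 fragments. NUPR1 is past 2-fold in FPKM, and its log2 ratio with the pseudocount was −0.90.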

How the data were processed

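Total RNA was extracted with a miRNeasy Micro kit and made into TruSeq Stranded mRNA libraries, per the labels' protocols. Each library came as a table of FPKM deposited by the authors. Per the submitters' processing notes the tools were HISAT2 2.1.0, SAMtools 1.20, Cufflinks 2.2.1 and Cuffdiff on GRCh38. The annotation, strand setting and treatment of shared fragments are not given in the sources used here. Symbols came from GENCODE release 44, which matched 56550 of 60658 identifiers.

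Ratios were log2(FPKM + 1) differences for genes with a mean FPKM of at least 1, which understate changes of low genes. No test was run within a line, since each group had 1 library. A limma 3.58.1 fit of line and siRNA, with 1 residual degree of freedom, was added after the data were seen and takes the siRNA effect as alike in both lines. Depth was estimated from the steps of low FPKM values in genes with 1 transcript of at least 500 bases: at the chosen depth, 78.8% to 80.5% of values up to 8 fragments lay within 0.03 of a whole number. Estimated fragments used canonical lengths less 202 bases. Intervals are 95% Clopper-Pearson, cover counting error only, and leave out variation between cultures. The depth, ratio and limma steps were tested on simulated data. Python 3.11.15, pandas 2.3.3 and scipy 1.17.1 were used.

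The 36 genes and all lists were chosen with earlier results of these data known. Values in each library are given for ATF4, DDIT3, ATF3 and each gene past 1.5-fold in a line, besides the most abundant of each role and, chosen after their values were seen, CHAC1, ASNS, CTH, CBS, VLDLR and the genes of differing level in the controls. From each other list, the 3 genes with the largest shared ratio and the 1 that differed most between lines were named. A gene that this rule picks is not reported here. EIF2AK4, EIF2AK1, EIF2AK2, SESN3, FGF21, GLUL, SLC43A1, SLC43A2, SLC7A7, FARS2, XBP1, ATF6 and MARS1 were named after their values were seen. The rule for promoters, which asked for genes past 1.5-fold in both lines with the core, picked none, so the printed windows were chosen afterwards. Alternatives were other pseudocounts, filters, scalings and thresholds.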

Additional observations from a re-analysis of the deposited data

Results flagged for a closer look

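For 7 genes the FPKM ratio lay on opposite sides of control in the lines, with counting intervals that did not include 100% in either. The differences between the lines were not tested, since each had 1 library per siRNA. For CEBPB, HT29 si2 was at 115% of control and LIM1215 si2 at 76.0%, and the log2 ratios (LIM1215 minus HT29) differed by −0.58. STC2 was at 105% and 73.8% (−0.50), PHGDH at 115% and 90.4% (−0.35), SLC1A5 at 106% and 90.7% (−0.22), and SLC7A5 at 106% and 93.9% (−0.17). ALDH18A1 went the other way, at 80.9% in HT29 and 115% in LIM1215 (0.50), as did VLDLR, at 18.2% and 143% (0.40), on an estimated 2.97 fragments in HT29 si2. The HT29 ratios of STC2, SLC7A5 and SLC1A5 changed sign with at least 1 of the scalings.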

How the results depend on the processing

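The libraries of a line form a pair, and the fit with the line as a block called 2 genes lower with a trend in the prior variance and 0 without it. With the threshold at 1.5-fold, the number of lower genes went from 1 to 4 in HT29, from 1 to 3 in LIM1215 and from 2 to 4 between the controls. The HT29 median of −0.06 moved to −0.14 with FPKM rescaled to a common sum, −0.13 with upper quartile scaling, −0.17 with a common sum without mitochondrially encoded genes and −0.13 as a mean over the genes. The LIM1215 median stayed between −0.18 and −0.12. Across all alternatives run, DDIT3 lay between −1.56 and −1.38 in HT29 and between −1.48 and −1.29 in LIM1215, and SHMT2 between −0.94 and −0.80 and between −0.98 and −0.92. Under the scalings the sign changed for 7 of 35 genes in HT29, 1 in LIM1215 and 5 between the controls. Centring on protein-coding genes was chosen after seeing the data. CBS was listed at 0 in both HT29 libraries, and VLDLR rested on an estimated 16.1 and 2.97 fragments there.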

Other observations

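Some enzymes and carriers of amino acids outside the 36 genes differed between the lines far more than with the siRNA, and were picked after their values were seen. ASS1, the argininosuccinate synthase of arginine synthesis, had FPKM of 43.5 in HT29 NC, 54.7 in HT29 si2, 1281 in LIM1215 NC and 1561 in LIM1215 si2. BCAT1, the cytosolic branched-chain transaminase, was listed at 0 in both HT29 libraries and at 55.8 and 69.5 in LIM1215. SLC7A8, a neutral amino acid exchanger that pairs with SLC3A2, was at 2.57 and 2.70 in HT29 and 43.1 and 46.5 in LIM1215. SLC7A7, another SLC3A2 partner, was at 0.430 and 0.802 in HT29 and 18.0 and 10.1 in LIM1215. GLUL was the reverse, at 71.2 and 108 in HT29 and 27.9 and 33.8 in LIM1215.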
